A study of Mus musculus with 15 samples.

Results

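Naive lung basophils were set against naive lung eosinophils in the 2 libraries of each, 4 of the 15 libraries of a study that profiled sorted lung cells by RNA sequencing. The libraries were chosen by their labels alone. Both cell types were sorted from lungs of C57BL6/J mice that had received no treatment. The basophil gate was positive for FceR1, the high-affinity IgE receptor, and for CD49b, and negative for c-kit. The eosinophil gate was positive for SiglecF, low for Gr1, without autofluorescence, and took cells with or without CD11c. The other 11 libraries hold naive natural helper cells, and basophils, eosinophils (by CD11c) and natural helper cells of mice that received the protease papain, 50 ug per mouse and given for 3 days by the intranasal route, 1 of them labelled 3'UTRKO. The labels name no genotype for the naive mice beyond the strain, give no age, and do not say whether the numbered libraries of a cell type came from separate animals or pools, so the p-values rest on nothing but the spread between libraries, which may be technical.

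Basophils and eosinophils are granulocytes that arise in bone marrow and take part in allergic inflammation and defence against parasites. Basophils bind IgE through a tetrameric receptor, and its crosslinking releases histamine, proteases, lipid mediators and type 2 cytokines. Eosinophils need IL-5 for their production and survival, enter tissue under eotaxins that act on CCR3, and store cationic proteins such as major basic protein, eosinophil peroxidase and ribonucleases in their granules.

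Values are FPKM, a measure of fragments corrected for transcript length and sequencing effort, which the deposited table gives as whole numbers. Read depth is unknown, so no counting interval can be given, and values of 0 to 2 are coarse. FPKM summed to 441179 and 428145 in the naive basophil libraries, against 411415 and 378766 in the naive eosinophil libraries. Small RNA genes took 11.7% and 19.3% of the total in basophils, against 8.12% and 6.48% in eosinophils. Replicates had a Pearson r of 0.957 for basophils and 0.978 for eosinophils across genes on the log2 scale, a description in which genes are not independent, against 0.887 to 0.914 between the cell types. Genes that reached 10 FPKM in either library of a pair, small RNA genes aside, were also compared on log2(FPKM + 1). Of these, 10.6% of 3977 differed over 2-fold between the basophil libraries, and 5.28% of 4375 between the eosinophil libraries. In bulk samples such as these, fewer cells of a type and less RNA per cell cannot be told apart.

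Markers of other cells differed between the libraries too. Scgb1a1, a secretory protein of airway epithelium, stood at 6363 and 8531 FPKM in naive basophils, against 690 and 1771 FPKM in naive eosinophils. The 13 epithelial markers summed to 6801 and 8786 FPKM in basophils and to 777 and 1829 FPKM in eosinophils; 1 of the 13 was called, and Epcam was at 4 and 1, against 1 and 1 FPKM. The 10 B cell markers summed to 207 and 390 FPKM in basophils, against 59 and 46 FPKM in eosinophils. The mast cell markers summed to 295 and 358 FPKM in basophils, against 31 and 37 FPKM in eosinophils. Basophil library 1 held 85 FPKM over 9 T cell markers and library 2 held 27 FPKM, 24 of it from Lat, against 2 and 1 FPKM in eosinophils. The 9 NK cell markers summed to 37 and 8 FPKM in basophils, against 8 and 9 FPKM in eosinophils, with Ncr1 at 0 in all 4 libraries. The 11 neutrophil markers summed to 291 and 569 FPKM in basophils, against 16698 and 8985 FPKM in eosinophils, with Retnlg the largest member in the eosinophil libraries. The part of such cells in the results below was not tested.

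The defining markers followed the labels. Mcpt8, a basophil granule protease, was at 824 and 252 FPKM in naive basophils, against 0 and 2 FPKM in naive eosinophils (log2 difference 8.04 ± 0.70 SE, limma adjusted p = 0.000182). Prg2, which encodes major basic protein, was at 0 and 2 FPKM in basophils, against 86 and 1519 FPKM in eosinophils (log2 difference -7.71 ± 1.24, limma adjusted p = 0.00373). The cell types did not overlap at either gene, but the eosinophil libraries lay far apart at Prg2. The eosinophil ribonuclease gene Ear6 was at 0 and 2 FPKM in basophils, against 91 and 333 FPKM in eosinophils (limma adjusted p = 0.0219). Its call was lost whenever any of the 4 libraries was left out, with an adjusted p of up to 0.133 without eosinophil library 2. Of 10 basophil markers, 9 were higher in basophils and none lower, with Il3ra, the IL-3 receptor alpha chain, at 43 and 48 FPKM, against 39 and 15 FPKM. Of 10 eosinophil markers, 7 were lower in basophils and none higher. Over all genes tested, 5.30% were higher and 8.66% lower in basophils. The marker lists include Fcer1a and Siglec5, genes of proteins that the gates selected on.

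Where a gate selected on a surface protein, the level of its gene in those cells describes the gate and is no finding. Fcer1a, the IgE-binding chain, was at 141 and 194 FPKM in basophils, against 0 and 1 FPKM in eosinophils. The gene of SiglecF, listed under the symbol Siglec5, was at 7 and 4 FPKM in basophils, against 63 and 66 FPKM in eosinophils. Itgax, which encodes CD11c, was at 7 and 4 FPKM, against 87 and 112 FPKM. The naive gates did not select on CD11c: the eosinophil gate took cells with or without it, and the basophil gate does not name it. Kit was low in both, at 7 and 7 FPKM in basophils, against 27 and 19 FPKM in eosinophils, whose gate does not name c-kit. Itga2, the gene of CD49b, stood at 5 and 3 FPKM in basophils, against 1 and 2 FPKM in eosinophils, and was not called.

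**Figure D1:**
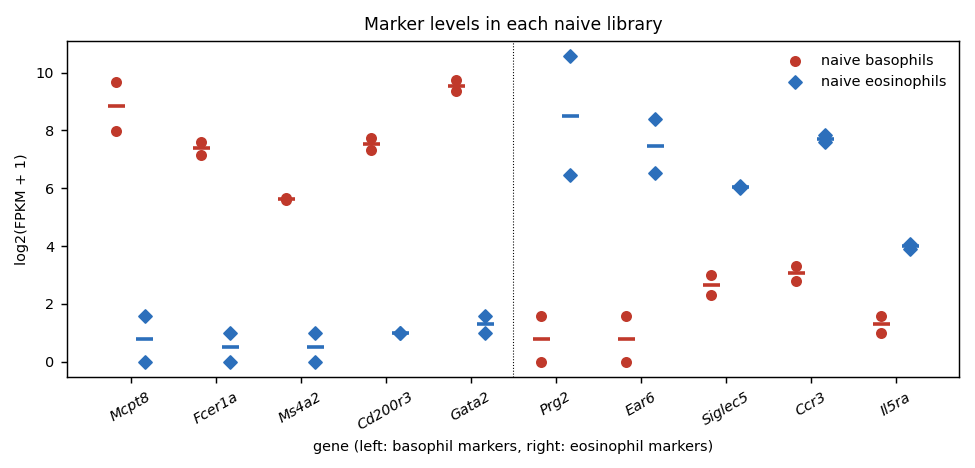
Level of 10 marker genes in each naive library, as log2(FPKM + 1) on the vertical axis, with naive basophils (red circles) left of naive eosinophils (blue diamonds) and a bar at each mean of 2 libraries. The 5 basophil markers lie at 47 FPKM or more in basophils and at 2 FPKM or less in eosinophils, and the eosinophil libraries stand apart at Prg2, with 86 and 1519 FPKM.

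Differences were tested with limma over all 15 libraries on log2(FPKM + 1), with p-values adjusted by Benjamini-Hochberg over the 14257 genes tested and a threshold of 0.05. Each log2 difference is basophils minus eosinophils, is followed by its standard error, and understates the change of low genes. The standard error draws on the spread within all groups, not only the naive ones. A gene whose naive libraries lie close together can thus go uncalled, and a missing call does not show equal levels. In naive basophils 755 genes (5.30% of those tested) were higher and 1235 (8.66%) were lower than in naive eosinophils, with no overlap of the libraries in any of them. Both basophil libraries lay above both eosinophil libraries at 15.2% of all genes tested and below them at 24.2%. Among the calls, 296 of the higher and 428 of the lower genes differed by 2 or more on the log2 scale, and 64 and 63 by 4 or more. Of the higher genes, 245 were listed at 0 in both eosinophil libraries, and 98 of the lower genes were listed at 0 in both basophil libraries.

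The balance of directions depended on the scaling. Higher genes made up 37.94% of the calls as deposited, 54.87% when libraries were scaled by median ratios and 51.34% when they were quantile-normalized. The median over all genes was 0 as deposited and moved by 0.04 under median-ratio scaling. That median includes genes listed at 0 in all 4 libraries, whose difference stays at 0, so it says little about expressed genes. Medians of lists moved more: from -0.545 to -0.255 for respiratory chain and ATP synthase genes and from -0.547 to -0.26 for the IgE receptor pathway. For the Siglec, CD300, CD200 and paired receptors the median moved the other way, from -0.359 to -0.585. Leaving out each library in turn gave 347 to 455 higher genes and 551 to 1364 lower genes; 551 came without basophil library 2 and 347 without eosinophil library 1. With only the 4 compared libraries in the fit, 155 of the 273 genes called in the role and marker lists or by size of difference were called. Of 129 called genes checked in this way, nearly all of them named here, 45 were not, with limma adjusted p-values of 0.0507 to 0.2425. The calls of these 45 rest on a spread shared with the other groups. On the higher side these genes were Areg, Cd200r1, Cd200r4, Cebpa, Cpa3, Fdx1, Gbp3, H2-Ob, Havcr2, Hdc, Il18rap, Il7r, Jun, Prss34, Ptgs2 and Stat5a. On the lower side they were Adora3, Bcl2a1a, Bcl2a1b, Bcl2a1d, Bhlhe40, Cd80, Chst11, Csf1r, Cybb, Ear6, Emr4, Gpr35, Gpx1, Icosl, Id2, Kit, Lta4h, Ltb4r1, Lyn, Mmp25, Pla2g4a, Pla2g7, Prg2, Prg3, Stat6, Stxbp2, Tlr13, Tlr9 and Tmem173. Where leaving out a library ends the call of a gene named below, the highest adjusted p is given with the library left out.

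**Figure D2:**
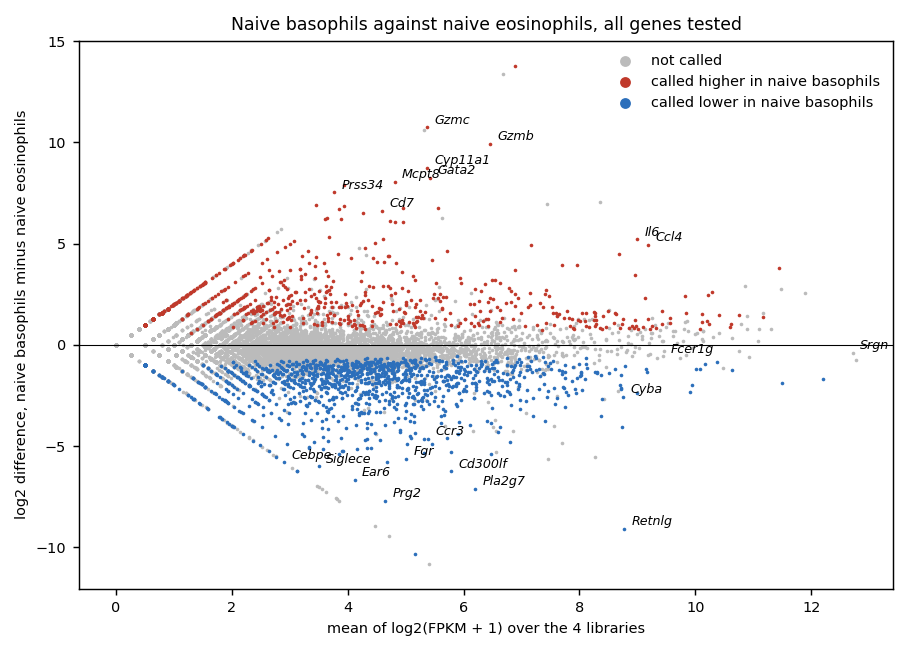
Mean of log2(FPKM + 1) over the 4 naive libraries (horizontal axis) against the log2 difference of naive basophils minus naive eosinophils (vertical axis), 1 point per gene tested. Red points are the 755 genes called higher in basophils and blue points the 1235 called lower; the unnamed points beyond Gzmc and Retnlg are small nucleolar RNA and microRNA genes.

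Small RNA genes aside, the largest differences among called genes are given first. Gzmc had 1780 and 1670 FPKM in naive basophils and was listed at 0 in both naive eosinophil libraries (limma adjusted p = 2.97e-05). Gzmb had 2582 and 2919 FPKM in basophils, against 3 and 1 FPKM in eosinophils (log2 difference 9.92 ± 0.68, limma adjusted p = 6.37e-05). Both encode granzymes, the serine proteases best known from cytotoxic lymphocytes. The perforin gene Prf1, whose product opens the way for granzymes in lymphocytes, was at 3 and 1 FPKM in basophils, against 1 and 0 FPKM in eosinophils. Naive natural helper cells had 1 and 3 FPKM of Gzmc and 13 and 4 FPKM of Gzmb.

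Cyp11a1, the enzyme that starts steroid synthesis by cleaving the side chain of cholesterol, had 875 and 845 FPKM in basophils, against 1 and 1 FPKM in eosinophils (log2 difference 8.75 ± 0.56, limma adjusted p = 5.17e-05). Gata2, a transcription factor of the basophil and mast cell lineages, had 664 and 845 FPKM in basophils, against 2 and 1 FPKM in eosinophils (log2 difference 8.26 ± 0.69, limma adjusted p = 0.000157). The other leading genes were Prss34, a tryptase-like protease of basophils and mast cells, Aqp3, a water and glycerol channel, Hs3st1, a heparan sulfate sulfotransferase, Cdh1, which encodes E-cadherin, Cd7, a surface glycoprotein of lymphocytes, and Cd200r3, an activating receptor of basophils. Each of these 6 had 102 FPKM or more in both basophil libraries and 2 FPKM or less in both eosinophil libraries, except Prss34, at 700 and 48 FPKM in basophils and listed at 0 in both eosinophil libraries. Cdh1 was at 139 and 150 FPKM in basophils, against 0 and 1 FPKM in eosinophils, and it was the only epithelial marker of the 13 that was called.

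On the eosinophil side Retnlg, a resistin-like secreted protein of myeloid cells, led with 9 and 34 FPKM in basophils, against 13759 and 7600 FPKM in eosinophils (log2 difference -9.09 ± 0.85, limma adjusted p = 0.000255). Pla2g7, which inactivates platelet-activating factor, had 12 and 2 FPKM in basophils, against 789 and 942 FPKM in eosinophils (log2 difference -7.11 ± 0.66, limma adjusted p = 0.000245). Cd300lf, an inhibitory receptor for lipids, had 9 and 3 FPKM, against 458 and 509 FPKM. Inpp5j, an inositol phosphatase, was listed at 0 in both basophil libraries and had 73 and 78 FPKM in eosinophils. The remaining leading genes encode Siglece, an inhibitory sialic acid receptor, Cebpe, a factor of late granulocyte maturation, Fgr, a Src family kinase, Slc11a1, a metal ion transporter of phagocytes, and the adhesion receptors Emr4 and Emr1 (F4/80). All 6 stayed at 20 FPKM or less in basophils and at 40 FPKM or more in eosinophils.

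Promoter letters are shown for the leading genes because the factors that bind GATA and C/EBP motifs were themselves among the genes that differed. In RefSeq windows of 250 bases before to 50 after a gene start (GRCm38.p6), the letters AGATAA or TGATAA, on either strand, were found for 3 of the 10 leading higher genes and 1 of the 8 leading lower genes that have a window. The share was 15.9% of 578 genes higher in basophils, 13.2% of 984 lower genes and 13.4% of 11105 genes tested. The C/EBP letters TTGCNNAA, also on both strands, were found for 3 of the 10 and 2 of the 8, and for 12.8% of higher, 11.8% of lower and 10.7% of tested genes. Over all 27025 RefSeq genes with a window the shares were 21% for the GATA letters and 12.2% for the C/EBP letters. In the runs shown, matches of the 2 patterns lie at different bases. Each run below reads 5′ to 3′ on the strand of its gene, with the match in capitals, and a match is a description, not a bound site.
Prss34, GATA, chr17:25298351-25298380, plus strand: cctgtggaagaaAGATAAatgggaccctgg
Fcer1a, GATA, chr1:173227304-173227333, minus strand: acaaccctattaTTATCTctggagaaagcc
Cd200r3, GATA, chr16:44943627-44943656, plus strand: gactggagatgaAGATAAagatagaggaat
Cyp11a1, C/EBP, chr9:58014809-58014838, plus strand: cctgccagtgtTTGCCTAActctactacag
Fcer1a, C/EBP, chr1:173227329-173227358, minus strand: tgactataaaaTTGCCCAAtttggcacaac
Retnlg, C/EBP, chr16:48872358-48872387, plus strand: agctTTCTGCAAggcattccaggcacctcc

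Counts per role follow, each against 5.30% higher and 8.66% lower over all genes tested. Medians of log2 differences over a list stand beside a median of 0 over all genes and include genes listed at 0 in a cell type, whose difference depends on the pseudocount of 1. The median over all genes is held near 0 by genes listed at 0 in all 4 libraries. It is therefore no baseline for lists of expressed genes, whose medians shift with the scaling.

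**Figure D3:**
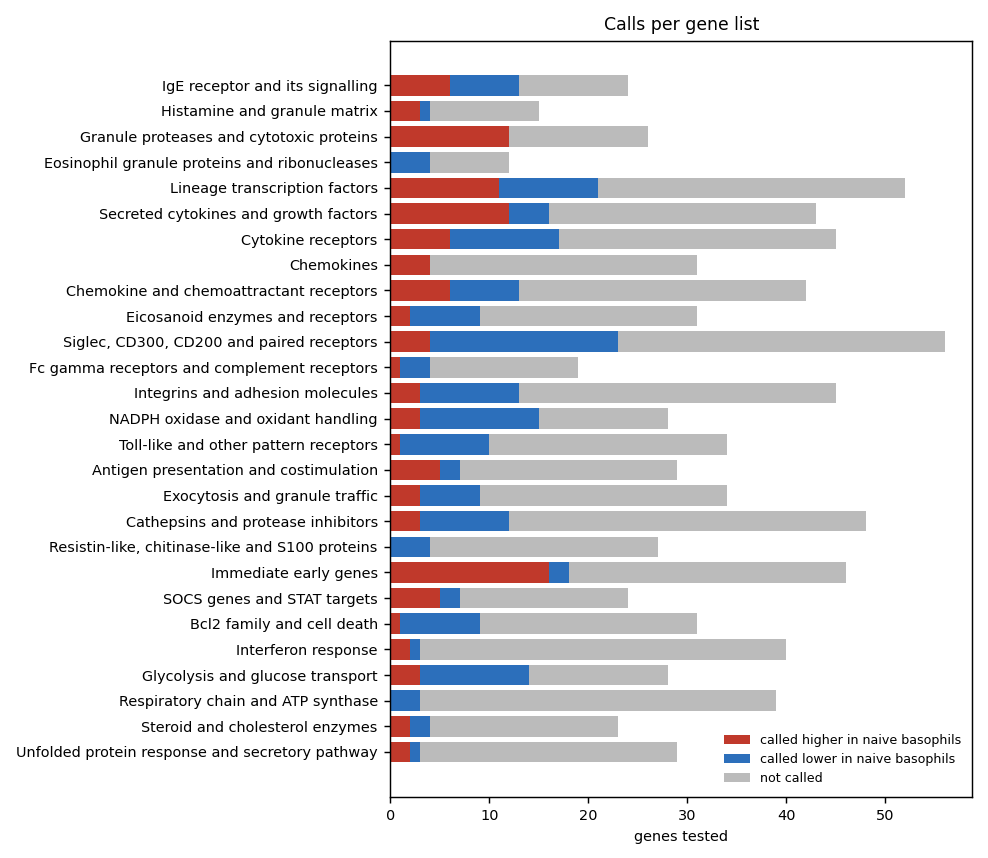
Number of genes tested in each of 27 role lists (horizontal axis), split into those called higher in naive basophils (red), called lower (blue) and not called (grey). Granule proteases hold 12 higher and 0 lower genes, and the Siglec, CD300, CD200 and paired receptors 4 higher and 19 lower genes.

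Granule proteases and cytotoxic proteins were higher in basophils: 12 of 26 tested were higher, none was lower (1 with median-ratio and 2 with quantile scaling), and the median log2 difference was 1.60. Fits that left out a library gave 9 to 10 higher and 0 to 4 lower genes. Beside Mcpt8, Prss34, Gzmb and Gzmc, the granzyme genes Gzme (24 and 24 FPKM) and Gzmg (17 and 18 FPKM) were found in basophils and listed at 0 in both eosinophil libraries. Granzyme genes of this cluster are near-identical in sequence, so the split of reads among Gzmc to Gzmg is uncertain and their calls are not independent. Some of the 12 called members were low genes, with log2 differences of 1.00, 1.59 and 1.90. Cpa3, a carboxypeptidase of mast cells and basophils, had 278 and 231 FPKM in basophils, against 1 and 6 FPKM in eosinophils (log2 difference 6.09 ± 0.83, limma adjusted p = 0.00151).

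Proteases typical of mast cells also stood higher in level in the basophil libraries. Mcpt4, a mast cell chymase, had 105 and 153 FPKM in basophils, against 2 and 4 FPKM in eosinophils (limma adjusted p = 0.0435), and its call was lost with any library left out, with an adjusted p of up to 0.204 without eosinophil library 1. Cma1, another chymase, had 90 and 94 FPKM, against 1 and 8 FPKM, and Tpsb2, a tryptase, 89 and 101 FPKM, against 1 and 5 FPKM. Neither of these was called (limma adjusted p = 0.0838 and 0.061), although the naive cell types did not overlap at either gene. The papain basophil libraries, which enter the shared spread, had 51 and 0 FPKM of each. Outside the granule, the mast cell receptor gene Mrgprb1 had 3 and 3 FPKM in basophils and was listed at 0 in both eosinophil libraries (limma adjusted p = 0.00125), and Mrgprb2 was at 1 and 0 FPKM in basophils. Kit, at 7 and 7 FPKM in basophils, was fixed by the gate.

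Granule proteins of eosinophils were lower in basophils at 4 of 12 members tested and higher at none, with a median log2 difference of -2.56. Prg3, a homologue of major basic protein, was listed at 0 in both basophil libraries and had 10 and 63 FPKM in eosinophils (limma adjusted p = 0.00543). Alox15, the 15-lipoxygenase counted with this list, had 51 and 44 FPKM in basophils, against 169 and 130 FPKM in eosinophils (limma adjusted p = 0.0209, and up to 0.139 without eosinophil library 1). Epx, eosinophil peroxidase, was at 0 FPKM in both basophil libraries, against 0 and 72 FPKM in eosinophils, and was not called. The ribonuclease genes Ear1 (3 and 5 FPKM in basophils, against 35 and 289 FPKM) and Ear2 (14 and 12 FPKM, against 39 and 206 FPKM) were not called either. At each of Prg2, Prg3, Ear1, Ear2, Ear6 and Epx, eosinophil library 2 had the higher level. Ear genes are close paralogs, so reads could be split among them.

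In the IgE receptor pathway 6 of 24 genes tested were higher in basophils and 7 lower, with a median log2 difference of -0.55. Beside Fcer1a, the beta chain gene Ms4a2 had 47 and 50 FPKM in basophils, against 0 and 1 FPKM in eosinophils (log2 difference 5.13 ± 0.29, limma adjusted p = 2.63e-05). The gamma chain gene Fcer1g, shared with other Fc receptors, had 581 and 563 FPKM in basophils, against 850 and 853 FPKM in eosinophils, and was not called. So the receptor chains differed in pattern: alpha and beta nearly absent from eosinophils, gamma high in both cell types.

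Downstream of the receptor, Lat, the membrane adaptor, had 18 and 24 FPKM in basophils and was listed at 0 in both eosinophil libraries (limma adjusted p = 0.00473). The T cell markers, which include Lat, summed to 85 and 27 FPKM in basophils, against 2 and 1 FPKM in eosinophils, with Cd3e at 19 and 0 FPKM and Cd3g at 17 and 1 FPKM in basophils and both at 0 in eosinophils. The part of T cells in the Lat value was not tested. The Src family kinase Fgr and the phosphatase SHP-1 were lower in basophils. Fgr had 6 and 2 FPKM in basophils, against 258 and 198 FPKM in eosinophils (log2 difference -5.63 ± 0.56, limma adjusted p = 0.000332), and Ptpn6, which encodes SHP-1, had 32 and 27 FPKM, against 285 and 248 FPKM (log2 difference -3.13 ± 0.33, limma adjusted p = 0.000422). The phospholipase gene Plcg2 was at 10 and 8 FPKM, against 27 and 33 FPKM (limma adjusted p = 0.00638, and up to 0.0509 without eosinophil library 2). Lyn, the kinase that starts receptor phosphorylation, had 60 and 43 FPKM in basophils, against 107 and 150 FPKM in eosinophils (limma adjusted p = 0.014, and up to 0.103 without basophil library 2).

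Of 15 genes for histamine and granule matrix, 3 were higher and 1 lower in basophils. Hdc, the enzyme that makes histamine, was abundant in both cell types, with 2955 and 3199 FPKM in basophils, against 716 and 360 FPKM in eosinophils (log2 difference 2.60 ± 0.57, limma adjusted p = 0.0167, and up to 0.115 without eosinophil library 2). Slc18a2, the transporter that loads monoamines into vesicles, differed more, with 905 and 687 FPKM in basophils, against 24 and 26 FPKM in eosinophils (log2 difference 4.93 ± 0.25, limma adjusted p = 2.02e-05). Srgn, the proteoglycan core protein of granules, had 5777 and 6010 FPKM in basophils, against 8283 and 7104 FPKM in eosinophils, and was not called. Chst11, a chondroitin sulfotransferase, had 5 and 2 FPKM in basophils, against 39 and 31 FPKM in eosinophils (limma adjusted p = 0.000331).

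Lineage transcription factors moved in both directions, with 11 of 52 higher in basophils and 10 lower, against 18 and 8 after median-ratio scaling, and a median log2 difference of 0.43. GATA factors were opposite: Gata2 stood among the leading higher genes, while Gata1, which directs eosinophil and erythroid development, had 3 and 3 FPKM in basophils, against 36 and 40 FPKM in eosinophils (log2 difference -3.28 ± 0.23, limma adjusted p = 6.58e-05). The C/EBP family was likewise divided. Cebpa had 81 and 108 FPKM in basophils, against 2 and 7 FPKM in eosinophils (log2 difference 4.27 ± 0.49, limma adjusted p = 0.0006). Cebpe was listed at 0 in both basophil libraries and had 40 and 75 FPKM in eosinophils (limma adjusted p = 5.56e-05), and Cebpb, at 725 and 817 FPKM, against 1302 and 921 FPKM, was not called.

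Other regulators separated the cell types as clearly. Ets1, a factor best known in lymphocytes, had 283 and 243 FPKM in basophils, against 10 and 9 FPKM in eosinophils (log2 difference 4.65 ± 0.26, limma adjusted p = 2.52e-05). Tal1, a partner of GATA factors, had 11 and 9 FPKM in basophils and was listed at 0 in both eosinophil libraries (limma adjusted p = 0.0013). Ahr, the aryl hydrocarbon receptor, had 6 and 4 FPKM in basophils, against 47 and 60 FPKM in eosinophils (log2 difference -3.19 ± 0.30, limma adjusted p = 0.00025). Id2, an inhibitor of E proteins, had 66 and 23 FPKM, against 291 and 345 FPKM (log2 difference -2.99 ± 0.48, limma adjusted p = 0.00369). Sfpi1, which encodes PU.1, had 73 and 85 FPKM, against 541 and 433 FPKM (limma adjusted p = 0.0305, and up to 0.154 without eosinophil library 1).

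Cytokine genes were more often higher than lower in basophils, at 12 and 4 of 43 tested, with a median log2 difference of 0.50. Il6 was the clearest, with 2713 and 3535 FPKM in basophils, against 91 and 75 FPKM in eosinophils (log2 difference 5.21 ± 0.31, limma adjusted p = 3.06e-05). Csf2, which encodes GM-CSF, had 27 and 35 FPKM in basophils and was listed at 0 in both eosinophil libraries (limma adjusted p = 0.000818). Areg, an epidermal growth factor relative of type 2 immunity, had 72 and 148 FPKM in basophils, against 1 and 6 FPKM in eosinophils (log2 difference 4.80 ± 0.76, limma adjusted p = 0.00351). Hgf, hepatocyte growth factor, had 222 and 156 FPKM, against 6 and 14 FPKM (log2 difference 4.19 ± 0.35, limma adjusted p = 0.000157). Osm, a cytokine of the IL-6 family, had 835 and 1136 FPKM, against 81 and 48 FPKM (log2 difference 3.94 ± 0.66, limma adjusted p = 0.00491).

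The type 2 cytokines differed less and less firmly. Il4 had 353 and 319 FPKM in naive basophils, against 126 and 110 FPKM in naive eosinophils (log2 difference 1.50 ± 0.40, limma adjusted p = 0.0384, and up to 0.164 without eosinophil library 2). Il13 had 169 and 226 FPKM in basophils, against 37 and 25 FPKM in eosinophils (log2 difference 2.64 ± 0.55, limma adjusted p = 0.0131, and up to 0.09 without basophil library 2). Il5 was at 0 in all 4 libraries. Transcripts of Il4 and Il13 were found in both cell types of untreated lungs, with both basophil libraries above both eosinophil libraries.

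Il1b was the most abundant cytokine transcript, at 9357 and 9161 FPKM in basophils, against 1690 and 1454 FPKM in eosinophils and was not called (log2 difference 2.56 ± 1.10, limma adjusted p = 0.181). Its naive libraries lay close within each cell type and did not overlap between them, so the missing call rests on the spread of all groups. Its antagonist gene Il1rn had 63 and 32 FPKM in basophils, against 527 and 735 FPKM in eosinophils (log2 difference -3.76 ± 0.76, limma adjusted p = 0.0118, and up to 0.0905 without basophil library 2). Ltb, lymphotoxin beta, had 47 and 39 FPKM, against 620 and 393 FPKM (log2 difference -3.50 ± 0.26, limma adjusted p = 8.89e-05), and Il16, a chemoattractant for CD4+ cells, 8 and 5 FPKM, against 46 and 60 FPKM (log2 difference -2.87 ± 0.24, limma adjusted p = 0.000167). Ltb and Il16 were called in every fit that left out a library.

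Among cytokine receptors 6 of 45 were higher in basophils and 11 lower, but 11 and 11 after median-ratio scaling. The IL-18 receptor chains were both higher: Il18r1 had 65 and 67 FPKM in basophils, against 2 and 2 FPKM in eosinophils (log2 difference 4.48 ± 0.34, limma adjusted p = 0.000106), and Il18rap had 156 and 165 FPKM, against 45 and 28 FPKM (log2 difference 2.14 ± 0.31, limma adjusted p = 0.00218). Il7r, the IL-7 receptor alpha chain, had 156 and 88 FPKM in basophils, against 2 and 10 FPKM in eosinophils (log2 difference 4.36 ± 0.61, limma adjusted p = 0.00165). Il7r and Areg are also natural helper cell markers, and are among the 3 of 10 such markers that were higher in basophils. The third was Rora, at 11 and 14 FPKM in basophils and at 0 in both eosinophil libraries. Naive natural helper cells had 221 and 177 FPKM of Il7r, 237 and 349 FPKM of Areg and 158 and 115 FPKM of Rora. The 10 markers summed to 360 and 337 FPKM in basophils, against 42 and 93 FPKM in eosinophils, and the part of such cells was not tested. Of the 7 markers that were not called, Gata3 was at 2 and 1 FPKM in basophils and at 0 in both eosinophil libraries. Il2ra, also not called, was at 5 and 3 FPKM, against 1 and 3 FPKM. Naive natural helper cells had 168 and 273 FPKM of Gata3 and 85 and 128 FPKM of Il2ra.

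The receptors of IL-3, IL-5 and GM-CSF share a beta chain, and their chains divided between the cell types. Csf2ra, the alpha chain for GM-CSF, had 31 and 16 FPKM in basophils, against 366 and 307 FPKM in eosinophils (log2 difference -3.85 ± 0.41, limma adjusted p = 0.000443). Il5ra, the alpha chain for IL-5, had 1 and 2 FPKM, against 14 and 16 FPKM (log2 difference -2.70 ± 0.47, limma adjusted p = 0.00586). The common chain gene Csf2rb had 651 and 586 FPKM in basophils, against 312 and 375 FPKM in eosinophils, and was not called, while its IL-3-specific copy Csf2rb2 had 667 and 616 FPKM, against 175 and 227 FPKM (log2 difference 1.68 ± 0.29, limma adjusted p = 0.00584, and up to 0.0538 without eosinophil library 1). These copies are near-identical, so reads could be split between them. Il1rl1, the IL-33 receptor, had 98 and 79 FPKM in basophils, against 38 and 72 FPKM in eosinophils, and was not called. Csf1r, the receptor for M-CSF and a macrophage marker, had 16 and 2 FPKM, against 125 and 201 FPKM (limma adjusted p = 0.00752, and up to 0.0556 without eosinophil library 2).

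**Figure D4:**
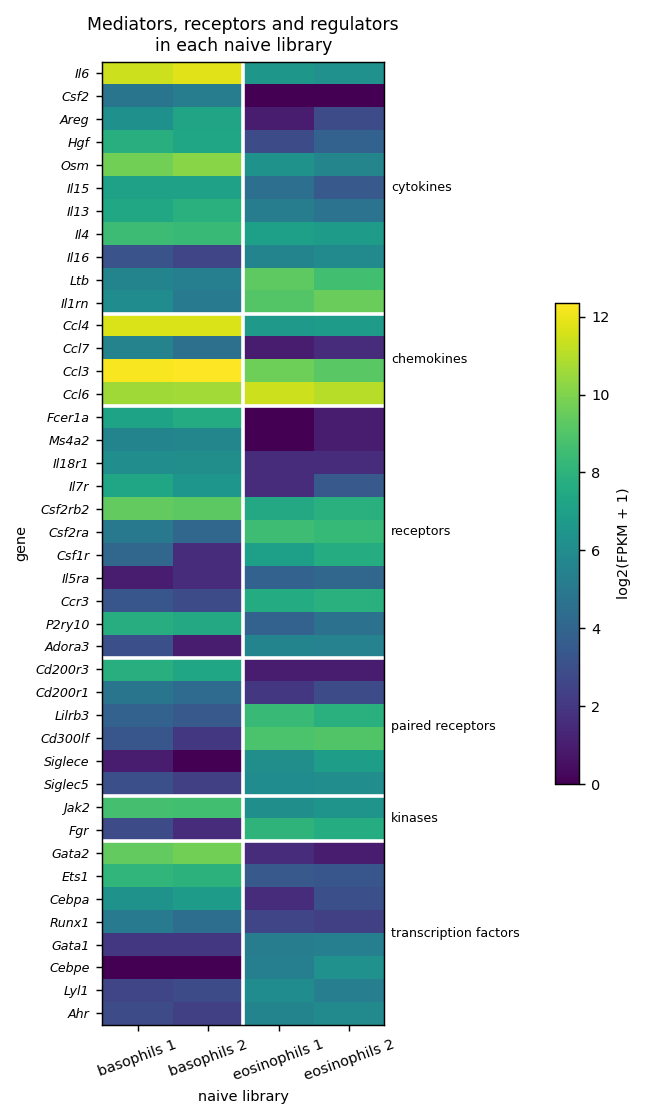
Levels of cytokines, chemokines, receptors, kinases and transcription factors as log2(FPKM + 1) (colour) in each naive library (columns, basophils left of eosinophils), 1 gene per row. Il6, Ccl4, Cd200r3, Gata2 and Ets1 are brighter in both basophil columns, and Ltb, Csf2ra, Ccr3, Cd300lf, Gata1 and Cebpe in both eosinophil columns.

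Chemokines were higher in basophils at 4 of 31 genes and lower at none, with a median log2 difference of 0.79. Ccl4, an inflammatory CC chemokine, had 3208 and 3208 FPKM in basophils, against 99 and 109 FPKM in eosinophils (log2 difference 4.94 ± 0.72, limma adjusted p = 0.00213). Ccl7, a ligand of CCR2 and CCR3, had 45 and 23 FPKM, against 1 and 2 FPKM (log2 difference 3.76 ± 0.43, limma adjusted p = 0.000602). Ccl9 had 1235 and 1255 FPKM, against 243 and 263 FPKM (limma adjusted p = 0.0434, and up to 0.181 without eosinophil library 1). Ccl3 was as abundant, with 4805 and 5266 FPKM in basophils, against 790 and 585 FPKM in eosinophils. It was not called (limma adjusted p = 0.071), although the naive cell types did not overlap. Ccl6 had 1545 and 1616 FPKM, against 2781 and 2071 FPKM, also without a call.

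Of 42 receptors for chemokines and other attractants, 6 were higher in basophils and 7 lower. Ccr3, the eotaxin receptor, had 9 and 6 FPKM in basophils, against 192 and 229 FPKM in eosinophils (log2 difference -4.65 ± 0.44, limma adjusted p = 0.000293). Members of the P2Y receptor family lay on both sides. P2ry1, a receptor for ADP, had 25 and 17 FPKM in basophils and was listed at 0 in both eosinophil libraries (limma adjusted p = 2.52e-05), and P2ry10, a receptor for lysophospholipids, had 209 and 177 FPKM, against 14 and 24 FPKM (log2 difference 3.32 ± 0.48, limma adjusted p = 0.0022). P2ry2, a receptor for ATP and UTP, had 6 and 5 FPKM in basophils, against 35 and 61 FPKM in eosinophils (log2 difference -2.87 ± 0.52, limma adjusted p = 0.00679, and up to 0.0556 without eosinophil library 2). P2ry14 had 11 and 3 FPKM, against 54 and 65 FPKM, and was not called. Adora3, an adenosine receptor, had 7 and 1 FPKM in basophils, against 46 and 43 FPKM in eosinophils (log2 difference -3.51 ± 0.59, limma adjusted p = 0.0047). Gpr35 had 7 and 3 FPKM, against 34 and 32 FPKM (limma adjusted p = 0.00129). Cxcr4, the receptor for CXCL12, had 769 and 470 FPKM in basophils, against 342 and 697 FPKM in eosinophils, and these values overlapped.

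Lipid mediator genes were lower in basophils at 7 of 31 and higher at 2. Ptgs2, the inducible cyclooxygenase, had 224 and 361 FPKM in basophils, against 46 and 19 FPKM in eosinophils (log2 difference 3.22 ± 0.48, limma adjusted p = 0.00241). Pla2g4a, the phospholipase that releases arachidonic acid, had 4 and 3 FPKM in basophils, against 16 and 10 FPKM in eosinophils (limma adjusted p = 0.0143, and up to 0.116 without eosinophil library 1). Alox5 and Alox5ap, which act in leukotriene synthesis, were not called. Alox5, the 5-lipoxygenase, had 45 and 54 FPKM in basophils, against 47 and 46 FPKM in eosinophils, a log2 difference of 0.08 ± 0.23. Alox5ap, its activating protein, had 935 and 927 FPKM, against 1075 and 1006 FPKM. Lta4h, which makes leukotriene B4, had 8 and 3 FPKM in basophils, against 57 and 66 FPKM in eosinophils (limma adjusted p = 0.0141, and up to 0.107 without basophil library 2). Its receptor gene Ltb4r1 had 3 and 2 FPKM, against 9 and 14 FPKM (limma adjusted p = 0.00361).

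Siglec, CD300, CD200 and paired immune receptors were lower in basophils at 19 of 56 tested and higher at 4, while 33 were not called, with a median log2 difference of -0.36. The CD200 receptor family made up 3 of the 4: Cd200r3 had 212 and 160 FPKM in basophils, against 1 and 1 FPKM in eosinophils (log2 difference 6.53 ± 0.63, limma adjusted p = 0.000314), Cd200r4 had 31 and 17 FPKM, against 2 and 4 FPKM, and Cd200r1, the inhibitory member, 27 and 19 FPKM, against 3 and 6 FPKM. Siglece had 1 and 0 FPKM in basophils, against 67 and 121 FPKM in eosinophils (log2 difference -6.01 ± 0.61, limma adjusted p = 0.000362). Pira1 had 2 and 1 FPKM, against 102 and 81 FPKM, and Pira2 2 and 2 FPKM, against 117 and 94 FPKM, although these activating receptors are near-identical copies and their split is uncertain. Lilrb3, their inhibitory counterpart, had 14 and 10 FPKM in basophils, against 325 and 232 FPKM in eosinophils (log2 difference -4.42 ± 0.51, limma adjusted p = 0.000627). The adaptor gene Tyrobp and the inhibitory receptor gene Lilrb4 were abundant in both, at 873 and 1066 FPKM in basophils, against 2303 and 1939 FPKM, for Tyrobp and at 1690 and 1639 FPKM, against 1279 and 963 FPKM, for Lilrb4. Neither was called.

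Adhesion molecules were lower in basophils at 10 of 45 and higher at 3. Median-ratio scaling gave 6 higher and quantile scaling 5, and fits that left out a library gave 1 to 2. Itgam, the alpha chain of Mac-1, had 24 and 20 FPKM in basophils, against 271 and 360 FPKM in eosinophils (log2 difference -3.77 ± 0.29, limma adjusted p = 0.000106), and its partner Itgb2 had 111 and 90 FPKM, against 434 and 432 FPKM (log2 difference -2.10 ± 0.27, limma adjusted p = 0.00112). Emr1 had 7 and 4 FPKM, against 199 and 320 FPKM, and Emr4 4 and 0 FPKM, against 77 and 111 FPKM. The 12 markers of monocytes or macrophages summed to 375 and 114 FPKM in basophils, against 391 and 653 FPKM in eosinophils, 1 of them higher and 2 lower, and the part of such cells in the Emr1 value was not tested. Itga2b, an integrin chain of platelets, had 181 and 177 FPKM in basophils, against 26 and 16 FPKM in eosinophils (limma adjusted p = 0.00999, and up to 0.0728 without eosinophil library 2). Of the other platelet markers, Pf4 was at 30 and 0 FPKM in basophils, against 1 and 0 FPKM. Cd9, at 1619 and 1512 FPKM, against 2050 and 1788 FPKM, and Cd63, at 350 and 432 FPKM, against 325 and 314 FPKM, both tetraspanins used to follow granulocyte activation, were not called.

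Among 19 Fc gamma and complement receptor genes 1 was higher and 3 lower in basophils, but 3 and 3 after median-ratio scaling. The low-affinity IgG receptor genes were found in both cell types without a call: Fcgr3 had 285 and 172 FPKM in basophils, against 309 and 557 FPKM in eosinophils, and the inhibitory Fcgr2b 111 and 103 FPKM, against 237 and 251 FPKM. Cd55, which limits complement on the cell surface, had 21 and 18 FPKM, against 82 and 73 FPKM (log2 difference -1.94 ± 0.18, limma adjusted p = 0.000212).

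Genes of the phagocyte NADPH oxidase and of oxidant handling were lower in basophils at 12 of 28 and higher at 3, with a median log2 difference of -0.87. Median-ratio scaling gave 9 lower and 5 higher genes, and fits that left out a library gave 5 to 11 lower and 0 to 2 higher. Cyba, a membrane subunit, had 181 and 173 FPKM in basophils, against 1184 and 923 FPKM in eosinophils (log2 difference -2.56 ± 0.19, limma adjusted p = 0.000105). Of the cytosolic subunits, Ncf4 had 56 and 61 FPKM, against 370 and 353 FPKM (log2 difference -2.61 ± 0.28, limma adjusted p = 0.000471). Ncf1, the organiser subunit, was not called, at 619 and 661 FPKM in basophils, against 747 and 810 FPKM in eosinophils. Cybb, the catalytic subunit, had 19 and 3 FPKM, against 46 and 59 FPKM (limma adjusted p = 0.0434, and up to 0.221 without basophil library 2). Gpx1, a glutathione peroxidase, had 93 and 52 FPKM, against 442 and 408 FPKM (log2 difference -2.59 ± 0.34, limma adjusted p = 0.00116).

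Sugar metabolism showed the same direction for most called genes: 11 of 28 were lower in basophils and 3 higher, with a median log2 difference of -0.63. Eno1, the enolase of glycolysis, had 30 and 23 FPKM in basophils, against 105 and 121 FPKM in eosinophils (log2 difference -2.06 ± 0.16, limma adjusted p = 0.000105). In the pentose phosphate pathway, which supplies NADPH, Taldo1 had 206 and 209 FPKM, against 924 and 725 FPKM (log2 difference -1.98 ± 0.23, limma adjusted p = 0.00064), and Pgd had 30 and 26 FPKM, against 100 and 135 FPKM (log2 difference -2.02 ± 0.24, limma adjusted p = 0.000748). Pfkp, a phosphofructokinase, was opposite, with 98 and 97 FPKM in basophils, against 18 and 20 FPKM in eosinophils (log2 difference 2.30 ± 0.20, limma adjusted p = 0.00017). The lactate dehydrogenase gene Ldha had 197 and 148 FPKM, against 135 and 149 FPKM, and was not called. Of 39 respiratory chain and ATP synthase genes, 3 were lower in basophils, and none was called after median-ratio scaling or quantile normalization.

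Pattern receptors and their adaptors were lower in basophils at 9 of 34 and higher at 1, with a median log2 difference of -0.86. That gene was Nlrp3, an inflammasome sensor, with 393 and 461 FPKM in basophils, against 44 and 23 FPKM in eosinophils (log2 difference 3.70 ± 0.36, limma adjusted p = 0.000331). Of the sensors of nucleic acids and bacterial wall fragments, Tlr13, Tlr9 and Nod1 were lower. Tlr13 had 5 and 2 FPKM in basophils, against 24 and 30 FPKM in eosinophils (limma adjusted p = 0.001), Tlr9 had 3 and 2 FPKM, against 9 and 24 FPKM (limma adjusted p = 0.00566), and Nod1 had 3 and 2 FPKM, against 30 and 23 FPKM (limma adjusted p = 0.000511). Nod2, at 12 and 7 FPKM in basophils, against 12 and 9 FPKM in eosinophils, and Aim2, at 8 and 2 FPKM, against 9 and 9 FPKM, were not called. Tmem173, which encodes STING, had 4 and 2 FPKM, against 21 and 18 FPKM (limma adjusted p = 0.00394). Cd14, at 160 and 61 FPKM in basophils, against 327 and 220 FPKM in eosinophils, was not called.

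Antigen presentation genes were higher in basophils at 5 of 29 and lower at 2, with a median log2 difference of 1.06. Of the class II genes, H2-Aa and Cd74 were not called. H2-Aa had 570 and 339 FPKM in basophils, against 65 and 535 FPKM in eosinophils, and the invariant chain gene Cd74 had 1266 and 899 FPKM, against 232 and 1090 FPKM. H2-Ob, a chain of the class II peptide editor's inhibitor, had 33 and 29 FPKM, against 5 and 9 FPKM (limma adjusted p = 0.0495, and up to 0.265 without eosinophil library 1). Eosinophil library 2 was the higher of its pair at H2-Aa and Cd74. The 9 dendritic cell markers summed to 44 and 126 FPKM in eosinophil libraries 1 and 2, and to 119 and 35 FPKM in the basophil libraries. Ccr7 (6 and 70 FPKM) and Cd209a (1 and 15 FPKM) were higher in eosinophil library 2. Another member went the other way (35 and 27 FPKM), and the rest were at 4 FPKM or less in both eosinophil libraries. Ccr7 was also at 91 and 31 FPKM in basophils and at 48 and 67 FPKM in naive natural helper cells. The part of dendritic cells was not tested. B cell markers, at 207 and 390 FPKM in basophils, against 59 and 46 FPKM in eosinophils, moved with the basophil libraries, and their part in class II levels was not tested.

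Costimulatory ligands and receptors were called in both directions, and some were not called. Cd80, a ligand of CD28, had 12 and 0 FPKM in basophils, against 115 and 133 FPKM in eosinophils (log2 difference -5.11 ± 0.92, limma adjusted p = 0.00693). Icosl, the ligand of ICOS, had 6 and 3 FPKM, against 108 and 52 FPKM (log2 difference -3.84 ± 0.39, limma adjusted p = 0.000358). Cd86, the other ligand of CD28, had 33 and 19 FPKM, against 5 and 25 FPKM, and Cd274, which encodes PD-L1, 61 and 62 FPKM, against 100 and 72 FPKM. Neither of these was called. In the other direction, Havcr2, which encodes TIM-3, had 131 and 84 FPKM in basophils, against 5 and 12 FPKM in eosinophils (log2 difference 3.58 ± 0.38, limma adjusted p = 0.000448). Tnfrsf9, which encodes 4-1BB, had 72 and 66 FPKM, against 8 and 9 FPKM (log2 difference 2.88 ± 0.51, limma adjusted p = 0.00597), and the early activation gene Cd69 had 253 and 316 FPKM, against 59 and 40 FPKM (log2 difference 2.52 ± 0.37, limma adjusted p = 0.00219).

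Immediate early genes were higher in basophils at 16 of 46 and lower at 2, with a median log2 difference of 0.90. Ier3, a stress and NF-kB target, had 1960 and 1908 FPKM in basophils, against 95 and 78 FPKM in eosinophils (log2 difference 4.47 ± 0.57, limma adjusted p = 0.00105). Jun had 77 and 86 FPKM, against 8 and 18 FPKM (log2 difference 2.66 ± 0.50, limma adjusted p = 0.00817, and up to 0.0696 without eosinophil library 1), and Fosl1 had 53 and 42 FPKM, against 8 and 6 FPKM (limma adjusted p = 0.00805, and up to 0.0576 without eosinophil library 2). Junb, Nfkbia and Btg1 were high in both cell types and not called, with Nfkbia at 712 and 770 FPKM in basophils, against 772 and 549 FPKM in eosinophils. Bhlhe40 was opposite to most of the list, at 55 and 38 FPKM in basophils, against 172 and 139 FPKM in eosinophils (log2 difference -1.74 ± 0.28, limma adjusted p = 0.00403). In fits that left out a library the higher count lay between 8 and 13.

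Cytokine signalling genes, a list of JAK, STAT and SOCS genes and of STAT targets, were higher in basophils at 5 of 24 and lower at 2. Jak2, the kinase of the common beta chain receptors, had 416 and 393 FPKM in basophils, against 70 and 83 FPKM in eosinophils (log2 difference 2.39 ± 0.20, limma adjusted p = 0.000157), and Stat5a had 83 and 54 FPKM, against 7 and 16 FPKM (log2 difference 2.54 ± 0.43, limma adjusted p = 0.00499). Stat6, which acts downstream of IL-4 and IL-13, was slightly lower, at 93 and 87 FPKM, against 183 and 144 FPKM (log2 difference -0.84 ± 0.15, limma adjusted p = 0.00682, and up to 0.0562 without eosinophil library 1). Among the 17 members not called were the STAT5 targets Pim1 and Cish, which do not stand for STAT5 targets as a group. Pim1 had 747 and 974 FPKM in basophils, against 1020 and 615 FPKM in eosinophils, and Cish had 143 and 123 FPKM, against 132 and 96 FPKM.

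Cell death genes were lower in basophils at 8 of 31 and higher at 1, with a median log2 difference of -0.63 and members of both arms of the pathway among the lower genes. Survival genes of the Bcl2a1 group were lower, with Bcl2a1b at 112 and 41 FPKM in basophils, against 518 and 543 FPKM in eosinophils (log2 difference -2.95 ± 0.40, limma adjusted p = 0.00139); its paralogs Bcl2a1a and Bcl2a1d are near-identical, so the split is uncertain. Fas, the death receptor, had 90 and 101 FPKM, against 560 and 432 FPKM (log2 difference -2.36 ± 0.30, limma adjusted p = 0.00109). Bcl2l11, which encodes the killer BIM, was higher in basophils, at 80 and 72 FPKM, against 39 and 37 FPKM (limma adjusted p = 0.0191, and up to 0.0963 without eosinophil library 2).

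Genes of granule traffic and of secreted proteases differed in both directions. Of 34 exocytosis genes 3 were higher and 6 lower in basophils, but 4 and 4 after median-ratio scaling. Sytl3, a synaptotagmin-like effector of Rab27, had 197 and 248 FPKM in basophils, against 4 and 1 FPKM in eosinophils (log2 difference 6.13 ± 0.64, limma adjusted p = 0.0004), while Rab27a itself had 21 and 25 FPKM, against 17 and 32 FPKM. Stxbp2, the syntaxin-binding protein Munc18-2, had 27 and 23 FPKM, against 125 and 83 FPKM (log2 difference -1.99 ± 0.22, limma adjusted p = 0.000539), and Lamp1 had 41 and 27 FPKM, against 147 and 176 FPKM (log2 difference -2.24 ± 0.27, limma adjusted p = 0.00079).

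Of 48 cathepsins, other tissue proteases and their inhibitors, 3 were higher and 9 lower in basophils, but 6 and 7 after median-ratio scaling. Serpine2, an inhibitor of thrombin and urokinase, had 51 and 31 FPKM in basophils, against 0 and 1 FPKM in eosinophils (log2 difference 4.85 ± 0.47, limma adjusted p = 0.000324). The matrix metalloproteinase gene Mmp9 had 2 and 2 FPKM, against 86 and 61 FPKM (log2 difference -4.61 ± 0.41, limma adjusted p = 0.000202), and Mmp25 had 2 and 0 FPKM, against 43 and 78 FPKM (log2 difference -5.09 ± 0.61, limma adjusted p = 0.000758). Mmp9 and Retnlg are also neutrophil markers. Of the granule genes of neutrophils, Camp was at 0 and 27 FPKM, Ltf at 5 and 8 FPKM and Ngp at 2 and 119 FPKM in the eosinophil libraries. Lcn2, at 39 and 21 FPKM, and Mmp8, at 3 and 2 FPKM, were higher in eosinophil library 1, and Lcn2 was at 20 and 30 FPKM in basophils. The part of neutrophils in Mmp9 and Retnlg was not tested.

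S100 proteins and relatives were lower in basophils at 4 of 27 and higher at none, with a median log2 difference of -0.87. S100a11, a calcium-binding protein of many cells, had 474 and 389 FPKM in basophils, against 2417 and 1925 FPKM in eosinophils (log2 difference -2.33 ± 0.24, limma adjusted p = 0.000387). The calprotectin genes, abundant in neutrophils, were not called: S100a8 had 118 and 288 FPKM in basophils, against 1417 and 560 FPKM in eosinophils, and S100a9 had 99 and 183 FPKM, against 1334 and 559 FPKM.

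Few genes of the remaining lists were called. In the interferon response list 2 of 40 were higher in basophils and 1 lower. Gbp3, a guanylate-binding protein, had 18 and 12 FPKM in basophils, against 2 and 4 FPKM in eosinophils (limma adjusted p = 0.00298). In the unfolded protein response list 2 of 29 were higher and 1 lower, with the chaperone gene Hspa5 at 280 and 301 FPKM in basophils, against 171 and 154 FPKM in eosinophils, without a call. Of 23 steroid and cholesterol genes 2 were higher and 2 lower. Cyp11a1 stood out by level, and the genes of the next steps of steroid synthesis, Hsd3b1, Hsd3b2 and Cyp17a1, were at 0 in all 4 libraries. Fdx1, the electron donor of the enzyme, had 8 and 5 FPKM in basophils, against 3 and 2 FPKM in eosinophils (limma adjusted p = 0.0384, and up to 0.2 without eosinophil library 2).

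Papain-treated mice give libraries of basophils and eosinophils that share none with the naive comparison, although all 15 libraries enter the same fit. The eosinophils were not gated alike: the naive gate took cells with or without CD11c, while papain eosinophils were split by CD11c. In papain basophils 930 genes (6.52% of those tested) were higher and 694 (4.87%) lower than in papain CD11c-negative eosinophils. Of the 755 genes higher in naive basophils, 234 (31.0%) were also called higher in papain basophils and 5 were called lower. Of the 1235 genes lower in naive basophils, 465 (37.7%) were called lower in papain basophils and 7 higher. Both papain basophil libraries lay above all 4 papain eosinophil libraries at 329 of the 755 genes (43.6%), against 14.3% of all genes, and below them at 710 of the 1235 genes (57.5%), against 11.3% of all genes.

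Leading genes of both directions kept their side under papain. Gzmc had 296 and 992 FPKM in papain basophils, against 1 and 0 FPKM in papain CD11c-negative eosinophils. Gata2 had 82 and 378 FPKM, against 4 and 3 FPKM, and Mcpt8 had 30 and 95 FPKM and was listed at 0 in both eosinophil libraries. Among the lower genes, Retnlg had 201 and 143 FPKM in papain basophils, against 7163 and 3449 FPKM in papain CD11c-negative eosinophils, and Prg2 10 and 1 FPKM, against 273 and 343 FPKM. Inpp5j had 1 and 0 FPKM, against 120 and 135 FPKM. These 6 genes were taken from the leading genes, for which no overlap between the naive cell types was a condition. None of the 6 overlapped between the papain groups just given. The share of all genes without overlap between those groups was not counted, so nothing is read from this.

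**Figure D5:**
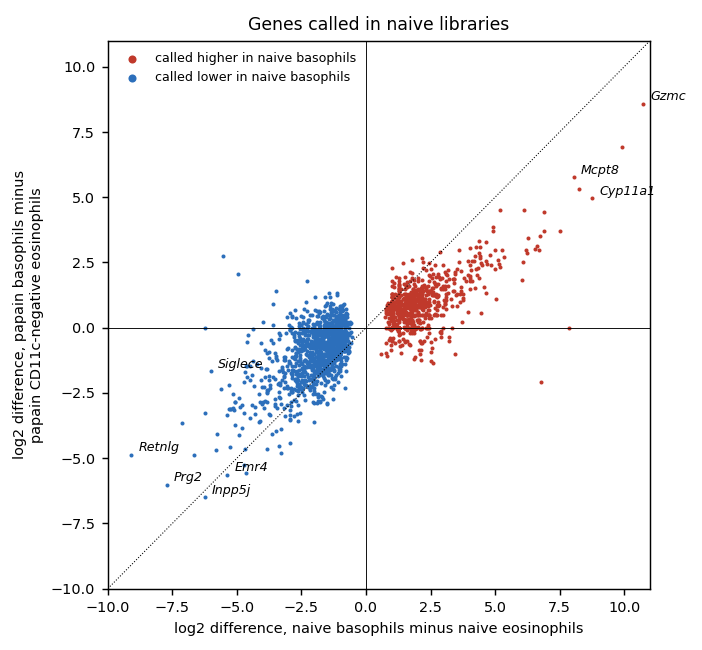
Log2 difference of naive basophils minus naive eosinophils (horizontal axis) against that of papain basophils minus papain CD11c-negative eosinophils (vertical axis) for the 755 genes called higher (red) and the 1235 called lower (blue) in naive basophils, with a dotted line of equality. Gzmc lies at the upper right below the line, and Cyp11a1 and Siglece lie off the line towards 0 on the vertical axis.

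The naive and papain differences themselves were compared in the same fit, with adjustment over all genes tested, and they differed at 336 genes (2.36%). On the eosinophil side, papain treatment and the CD11c gate changed together, and their parts cannot be told apart. Among these were 92 of the 755 genes higher and 98 of the 1235 lower in naive basophils, and 2 of the 30 leading, gate and marker genes. Since these genes were chosen by their naive difference, nothing is read from the counts. Cyp11a1 had a log2 difference of 4.95 ± 0.56 between papain basophils (101 and 281 FPKM) and papain CD11c-negative eosinophils (5 and 4 FPKM), which is 3.80 ± 0.80 less than in naive cells (limma adjusted p = 0.0474). Siglece had a log2 difference of -1.67 ± 0.61 between papain basophils (11 and 43 FPKM) and papain CD11c-negative eosinophils (74 and 70 FPKM), and the naive difference minus the papain difference was -4.34 ± 0.87 (limma adjusted p = 0.0387). Both calls sat near the threshold, and either eosinophil library left out brought the count among the 30 to 0. At Ets1 the naive difference exceeded the papain log2 difference of 1.34 by 3.31 (limma adjusted p = 0.00868), and at Il6 it exceeded the papain log2 difference of 2.33 by 2.88 (limma adjusted p = 0.0118). Alox5 and Il1rl1, not called in naive cells, were lower in papain basophils, with log2 differences of -2.22 (limma adjusted p = 0.000749) and -1.79 (limma adjusted p = 0.00511). The epithelial marker Scgb1a1 stood at 19550 and 32382 FPKM in papain basophils, against 5044 and 8407 FPKM in papain CD11c-negative eosinophils, and the part of such transcripts in the papain values was not tested.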

How the data were processed

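Each library has 1 score per gene in the deposited table, which the authors made with TopHat 1.4.0 and Cufflinks 1.3.0 on mm9, per the submitters' processing notes. The unit, whole-number FPKM, was read from the values and the tools; the annotation, filters and rounding are not given in the sources used here. Per the labels' protocols, NEBNext kits were used to select poly(A) RNA and build the libraries. The table has 21110 rows, of which 5521 were 0 in every library. Commas were removed from 1008 cells, 3 cells next to 0 were set to 0, and 25 symbols turned into dates were not named.

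Genes at 1 FPKM or more in at least 2 libraries were fitted as log2(FPKM + 1), without further scaling, in limma 3.58.1 (R 4.3.3), with 1 coefficient per group over all 15 libraries (7 residual degrees of freedom), eBayes with trend, and p-values, two-sided, adjusted by Benjamini-Hochberg across the genes tested. A fit over all groups shares its estimate of the spread. The count test was not used because the values are no counts. The fit was tested on simulated data, where false calls were more frequent than the threshold allows.

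The members, gene lists and tests were chosen with earlier results of these data known. Named genes are up to 12 called per direction by size of difference (a mean of 10 FPKM or more in the higher cell type), up to 4 called per direction and 3 uncalled per role list, marker genes, and ligands, receptors or partners of these. Some genes that this rule selects are not reported here. Marker lists of endothelium, fibroblasts and alveolar macrophages held no call, as did NK cell and red blood cell lists; dendritic cell and monocyte lists held 1 higher gene each and 1 and 2 lower genes. Alternatives were the pseudocount, the filter, the scaling, small RNA genes left out, the trend, the 4 compared libraries alone, a replicate block and each library left out.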

Additional observations from a re-analysis of the deposited data

Results flagged for a closer look

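The difference between naive basophils and naive eosinophils was itself different from that between papain basophils and papain CD11c-negative eosinophils at 23 of 187 genes checked, against 2.36% of all genes. Nearly all of the 187 are named in the text. The genes were named with their naive difference known, so nothing is read from that count. Values below are the naive log2 difference minus the papain log2 difference, each from limma with p adjusted over all genes. Naive eosinophils were not split by CD11c, so treatment and the CD11c gate cannot be told apart in these values.

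At Cyp11a1 the value was 3.797 (limma adjusted p = 0.0474), from 8.75 in naive cells and 4.95 in papain cells. At Siglece it was -4.342 (limma adjusted p = 0.0387), from -6.01 in naive cells and -1.67 in papain cells, where Siglece was not called (limma adjusted p = 0.113). These were the 2 called among the 30 leading, gate and marker genes.

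Of the other 21 genes, 8 had a positive value. It was 3.314 at Ets1, 2.882 at Il6 and 2.544 at Ms4a2, which were also called higher in papain basophils. It was 2.748 at Cd200r1, 2.725 at Il18rap and 2.288 at Csf2rb2, which were not called under papain and had papain log2 differences of -0.59, -0.58 and -0.61. At Alox5 it was 2.298 and at Il1rl1 2.525, where the naive difference was not called and papain basophils were lower.

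The remaining 13 genes, all called lower in naive basophils, had a negative value. It was -2.318 at Ltb, -2.725 at Mmp9, -2.113 at Pira1 and -2.06 at Pira2, which were also called lower in papain basophils. It was -2.908 at Bcl2a1b, -1.882 at Cyba, -1.506 at Eno1, -2.384 at Gpx1 and -2.879 at Icosl, which were not called under papain. It was -2.321 at Lamp1, -3.098 at Nod1, -1.88 at Pgd and -3.103 at Tmem173, which were not called under papain either. Limma adjusted p-values of these 21 values lay between 0.00868 and 0.0498.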

How the results depend on the processing

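All 273 called genes of the lists and rules kept their direction in every alternative that tested them, 155 were called in all 4 fits that left out a library, and 17 in every alternative. Against 755 higher and 1235 lower genes, median-ratio scaling gave 1229 higher genes, the 4 compared libraries alone gave 717 lower genes, and leaving out a library gave 347 to 455 higher and 551 to 1364 lower genes, where the remaining library of that cell type is assumed to vary like the other groups. Replicate numbers gave no sign of pairing the libraries, and the labels do not say: deviations of same-numbered naive basophil and naive eosinophil libraries had a correlation of -0.298 across 6550 genes. With a replicate block over all 15 libraries, 653 genes were higher and 1099 lower. Within the 4 compared libraries the replicate block gave 354 and 166, and crossed pairing, added after seeing the data, gave 409 and 213. Among the 30 genes whose naive and papain differences were compared, 2 calls became 1 with the replicate block, with a pseudocount of 0.5, without a filter or without the trend, 4 with a mean of 5 FPKM or with small RNA genes left out, 6 with a pseudocount of 5, 7 with median-ratio scaling, and 0 to 3 without a library. The causes were not tested. Read depth is unknown, so low values have no stated precision.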
